A study of Mus musculus with 8 samples.

Results

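Helper T cells that lacked both T-bet and STAT6 (genotype T-bet-/- STAT6-/-, called double-null here) were compared with wild-type (WT) cells across all expressed genes. All libraries held RNA of CD44+ CD4+ T cells, helper T cells that have met antigen. They came from the lymph nodes that drain the skin of BALB/cAJcl mice, and the cells of every genotype had been treated with the phorbol ester PMA and the calcium ionophore ionomycin over 2 h, which bypass the T cell receptor. Of the 8 libraries of the study, 4 entered this comparison, 2 double-null and 2 WT. The 2 T-bet-/- (T-bet-null) and 2 STAT6-/- (STAT6-null) libraries separated what each single loss also gave from what appeared with both. The sources used here do not state how the alleles were made or how old and of which sex the mice were. Nothing in the labels says whether both libraries of a genotype are independent animals, and each p-value therefore reflects library-to-library spread that may be technical only.

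T-bet, encoded by Tbx21, is the factor of Th1 cells: it turns on Ifng and Cxcr3 and holds back other helper programmes. STAT6 acts downstream of the IL-4 receptor and supports Th2 cells through Gata3. Th17 cells need IL-23 and IL-1 for upkeep, and make IL-17A, IL-17F, IL-22 and the chemokine CCL20. In skin these cytokines act on keratinocytes and draw in neutrophils, while IL-9 supports mast cells.

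Levels are given in FPKM, fragments scaled to transcript length and to the size of the library. Of 11841 gene symbols, 10281 reached at least 1 FPKM in at least 2 of the 8 libraries, and these were tested on log2(FPKM + 1) with limma, 8 libraries in 1 fit. A gene was called at a Benjamini-Hochberg adjusted p under 0.05 over all genes tested. Differences are on the log2(FPKM + 1) scale with their SE, and this scale understates the change of low genes.

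The 5 marker genes of the double-null state, Il17a, Il17f, Il22, Ccl20 and Il9, were chosen with earlier results of these data known. The 250 bases before the RefSeq transcription start are shown for the 3 of them whose window lies wholly outside the annotated gene, because the markers were higher together and motifs of T-bet, STAT6 and other factor families can be looked up there. The windows are chr1:20730655-20730904 on the plus strand for Il17a, chr1:83116516-83116765 on the plus strand for Ccl20 and chr13:56482258-56482507 on the minus strand for Il9, all in GRCm38.p6, the assembly behind mm10. Capitals mark matches to the ROR motif AGGTCA, the T-box motif GGTGTGA, the STAT6 motif (TTC and GAA with 4 bases of any kind between them), the general STAT motif TTCNNNGAA and the AP-1 motif TGANTCA, each searched on both strands.
Il17a: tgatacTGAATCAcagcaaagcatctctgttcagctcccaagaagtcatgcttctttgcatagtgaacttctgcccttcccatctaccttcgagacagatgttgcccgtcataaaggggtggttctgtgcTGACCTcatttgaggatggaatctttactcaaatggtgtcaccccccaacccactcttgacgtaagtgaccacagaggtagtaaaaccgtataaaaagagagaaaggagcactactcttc
Ccl20: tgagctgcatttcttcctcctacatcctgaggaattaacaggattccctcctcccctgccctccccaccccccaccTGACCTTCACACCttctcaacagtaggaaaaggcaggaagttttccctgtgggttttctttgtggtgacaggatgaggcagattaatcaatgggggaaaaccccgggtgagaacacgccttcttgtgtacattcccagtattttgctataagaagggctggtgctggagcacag
Il9: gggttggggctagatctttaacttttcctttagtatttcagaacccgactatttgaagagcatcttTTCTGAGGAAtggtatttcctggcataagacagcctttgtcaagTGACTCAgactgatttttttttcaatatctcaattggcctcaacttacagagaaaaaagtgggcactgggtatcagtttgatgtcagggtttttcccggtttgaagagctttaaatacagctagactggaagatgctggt
In the Il17a window the AP-1 match began at base -244 and the ROR match at base -120, counted from the start site. Ccl20 held a ROR match at base -174 with a T-box match directly after it, at base -168. Il9 held a STAT6 match at base -184 and an AP-1 match at base -140, and no ROR match. In the Il17f window, chr1:20784271-20784520 on the minus strand, a ROR match lay at base -58, and the Il22 window held none of the 5 motifs. Over all 32851 RefSeq promoter windows of this length, 14.0% held the ROR motif, 3.33% the T-box motif, 5.85% the STAT6 motif, 7.02% the general STAT motif and 6.75% the AP-1 motif. A match describes letters in a window and says nothing of binding.

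The labels were first read against the transcripts. Tbx21 stood at 2.49 and 2.09 FPKM in the double-null libraries against 30.8 and 31.6 in WT, and Stat6 at 29.6 and 26.9 FPKM against 89.9 and 90.9. Both fell in double-null cells, and neither was absent there. Relative depth, read from the steps of low values, ranged from 0.876 to 1.064 over the 8 libraries. WT stood apart from all mutants: across genes, r between libraries was 0.9341 to 0.9388 for WT with double-null and 0.9832 to 0.9888 for double-null with a single mutant, against 0.9965 to 0.9977 within a genotype. All 8 helper T cell markers in the table were tested. Of these, 5 were lower and 2 higher in double-null than in WT cells, against 36.7% and 36.3% of all genes. Their median was -0.60, against -0.005 over all genes. Their summed level was 2010 to 2170 FPKM in double-null and 2110 to 2150 in WT libraries. Cd4 itself was 88.1 and 110 FPKM against 195 and 208. The erythroid transcripts Hba-a1 and Beta-s together came to 224 to 442 FPKM in WT and 2.63 to 4.15 in double-null libraries. Y-linked Ddx3y was 60.1 and 66.0 FPKM in WT and 16.2 and 36.6 in double-null libraries. Of 4 Y-linked genes, 3 were lower in double-null cells, against 36.7% of all genes. Of other cell types, summed markers were 45.4 to 49.9 FPKM for B cells (WT 42.3 to 67.4), 116 to 140 for myeloid cells (WT 191 to 196), 10.7 to 13.8 for NK and innate-like T cells (WT 9.05 to 9.89), 10.7 to 11.3 for stroma (WT 24.2 to 26.0) and 48.8 to 55.0 for keratinocytes (WT 11.4 to 11.7). Their defining genes Pax5, Csf1r, Ncr1, Col1a2, Krt5 and Krt14 are not among the listed genes. The keratinocyte sum rested on Perp, a p53 target, at 46.3 and 52.2 FPKM in double-null and 8.34 and 8.86 in WT libraries. The part of these differences in the results was not tested.

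Double-null libraries differed from WT in most measured genes by small amounts and in a smaller set by much. Against WT, 3734 genes were higher (36.3% of those tested) and 3775 lower (36.7%), and 641 (6.23%) and 683 (6.64%) of these differed by at least 2-fold. The median over all genes was -0.005. The 12 largest rises were, in order, those of Mmp13 (4.35), Ccl20, Il17f, Il9, Timp1, Npy, Gzmb, Il17a, Ncs1, Scg2, Mmp10 and Zeb2 (3.11). Downward, the first 12 in order of size were Beta-s (-6.1), Ifng, Hba-a1, Mir27a, Tbx21, Nkg7, Cxcr3, 2210039B01Rik, Ccr7, Arl5c, Mxd4 and Arl13b (-2.6). Beta-s and Hba-a1 are red blood cell genes, and Ccr7 encodes the receptor that guides T cells into lymph nodes. In bulk RNA, fewer or more cells of a type and less or more RNA per cell cannot be told apart.

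**Figure D1:**
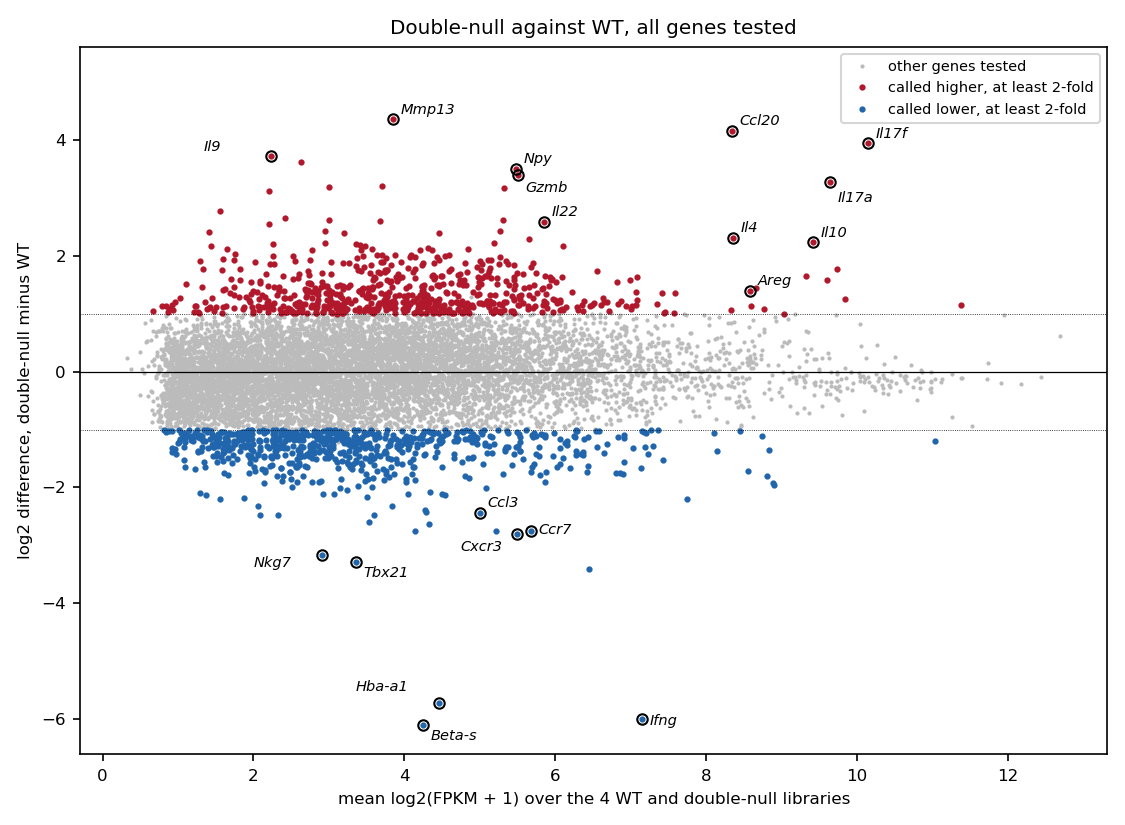
Difference between double-null and WT (y axis, log2) against mean level over the 4 libraries (x axis, log2(FPKM + 1)) for the 10281 genes tested. Coloured points are called and differ by at least 2-fold, 641 higher and 683 lower; Il17a, Il17f and Ccl20 lie at the upper right, at high level and large rise, and Ifng lies at -5.99.

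Il17a, the founding cytokine of Th17 cells (chr 1, 20730905-20734496), stood at 2374 and 2620 FPKM in the double-null libraries. It stood at 270 and 243 FPKM in WT, 617 and 586 in T-bet-null and 500 and 581 in STAT6-null libraries. Both double-null libraries lay above all 6 others, as held for 1375 of the tested genes (13.4%). The difference from WT was 3.28 ± 0.09 (adjusted p = 3.96e-08), and the differences from T-bet-null and STAT6-null cells were 2.05 ± 0.09 (adjusted p = 3.02e-06) and 2.21 ± 0.09 (adjusted p = 2.23e-06). The single mutants themselves were 1.23 and 1.07 above WT. All differences from WT, here and below, share the same 2 WT libraries.

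Il17f, its neighbour on chromosome 1 (20777146-20785274), reached the highest level of the 5 markers at 4163 and 4691 FPKM. WT libraries had 309 and 268, T-bet-null 724 and 730 and STAT6-null 968 and 1072 FPKM, so every genotype stood clear of the others. The difference from WT was 3.94 ± 0.091 (adjusted p = 2.2e-08), with 2.60 against T-bet-null and 2.12 against STAT6-null cells, both called.

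Ccl20, the chemokine that attracts CCR6-bearing cells (chr 1, 83116766-83119167), showed the largest rise of the 5. It stood at 1313 and 1424 FPKM in double-null, 78.2 and 73.3 in WT, 178 and 178 in T-bet-null and 371 and 452 in STAT6-null libraries. The order was WT, T-bet-null, STAT6-null, double-null with no overlap. The difference from WT was 4.16 ± 0.091 (adjusted p = 2.01e-08).

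Il22, whose product acts on epithelial cells (chr 10, 118204584-118210047), followed another order. It stood at 123 and 162 FPKM in double-null and 21.3 and 24.1 in WT libraries, with 32.6 and 33.8 in STAT6-null but 9.64 and 9.73 in T-bet-null libraries. T-bet-null cells were thus the lowest, below WT by 1.15, and double-null cells the highest, 2.58 ± 0.114 above WT (adjusted p = 1.95e-07) and 3.73 ± 0.114 above T-bet-null cells (adjusted p = 5.22e-07). Iltifb, a near-identical copy of Il22 on the same chromosome (118289629-118295038), stood at 23.9 and 37.7 FPKM in double-null, 11.5 and 11.7 in WT, 4.71 and 5.46 in T-bet-null and 7.08 and 7.26 in STAT6-null libraries. Reads of the copies may have been split between them, so the separate levels are uncertain.

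Il9 (chr 13, 56479277-56482257) was the only one of the 5 close to absent in WT, at 0.130 and 0.498 FPKM. It stood at 15.9 and 16.2 FPKM in double-null, 6.97 and 8.76 in T-bet-null and 4.54 and 4.62 in STAT6-null libraries. Its values lay on whole steps of 1 fragment (within 0.0255 of a whole number), which gave 1 and 4 fragments in WT, 46 and 65 in T-bet-null, 34 and 36 in STAT6-null and 115 and 130 in double-null libraries. Per depth, double-null cells had 50.5 times the WT fragments (95% exact interval 21.4 to 157), 2.03 times those of T-bet-null (1.61 to 2.56) and 3.5 times those of STAT6-null cells (2.67 to 4.64). These intervals cover counting error only. On the log2(FPKM + 1) scale the differences were 3.71 ± 0.135 (adjusted p = 8.04e-08), 0.95 ± 0.135 (adjusted p = 0.00126) and 1.61 ± 0.135 (adjusted p = 0.000119). With a pseudocount of 0.1 in place of 1, the difference from T-bet-null cells was 1.03 with an adjusted p of 0.052, outside the threshold; over all its alternatives that p ranged from 0.000545 to 0.052.

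**Figure D2:**
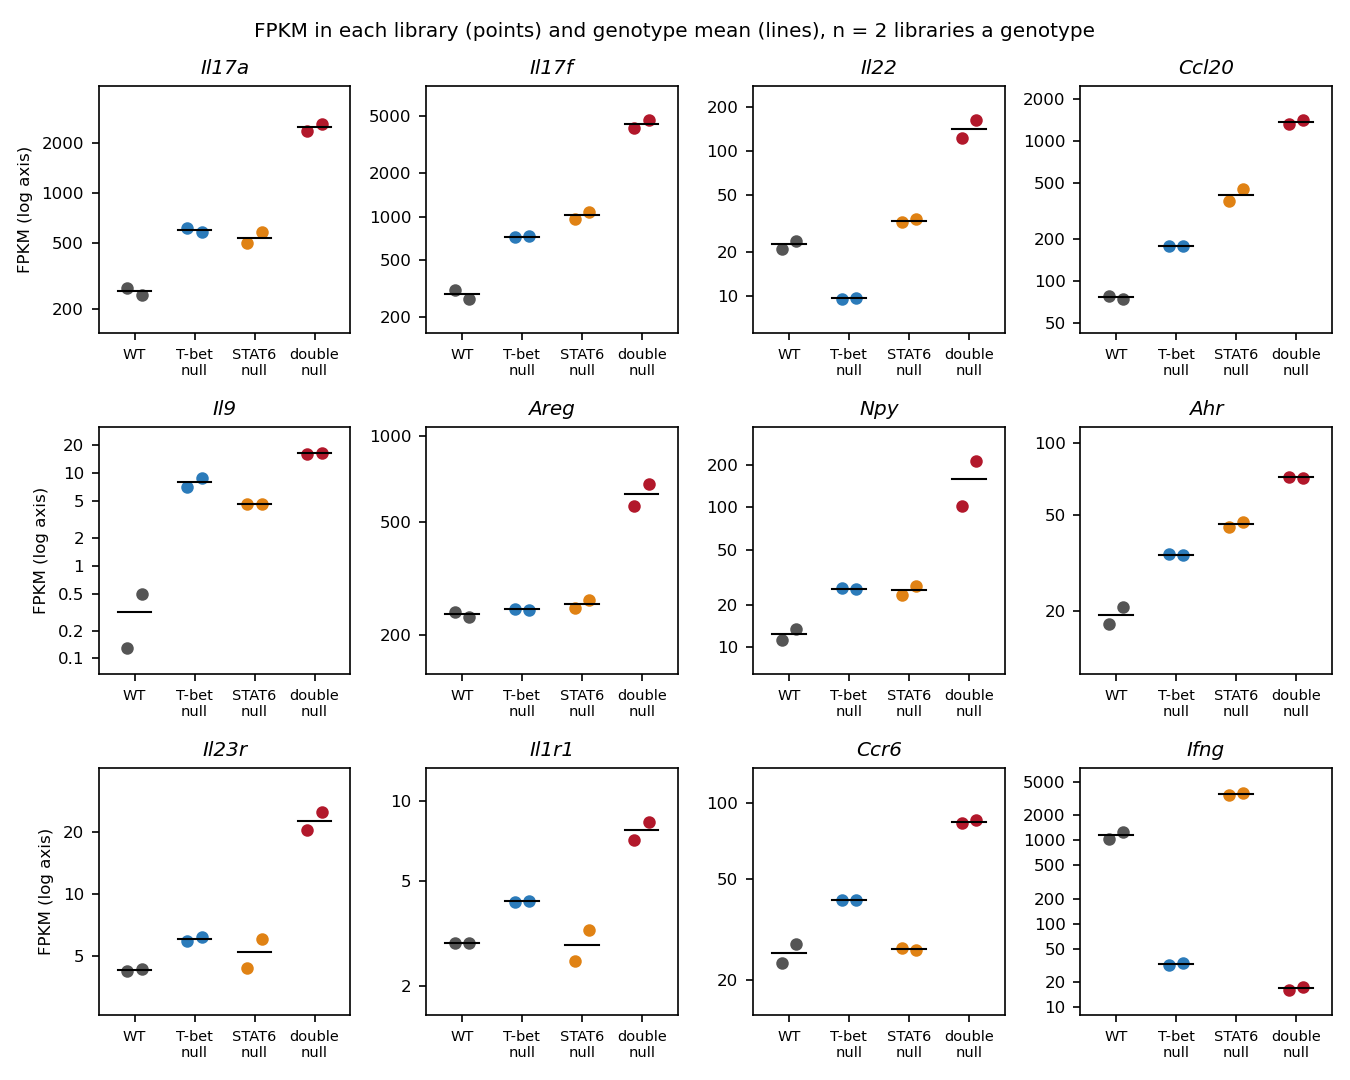
FPKM (log axis) of 12 genes in each of the 8 libraries, with the genotype mean as a line. In the 5 markers and in Areg, Npy, Ahr, Il23r, Il1r1 and Ccr6 both double-null points lie above the other 6; in Ifng they lie below them, at 16 and 17.8 FPKM.

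By the interaction term of the fit, the effect of STAT6 loss was larger without T-bet than with it for Il17a, Il17f, Il22 and Ccl20. It was smaller for Il9. This term includes the WT libraries, and it was called above 0 for 29.6% and below 0 for 27.7% of all genes tested. Most genes of the wider Th17 list rose. That list counts marker genes such as Il17a and Il17f, which were chosen with these data known. Of its 19 tested genes, 18 were higher and 1 lower in double-null than in WT cells, against 36.3% and 36.7% of all genes. By at least 2-fold, 11 were higher and 0 lower, against 6.23% and 6.64% of all genes. The list's median was 1.59 against -0.005 over all genes. Against T-bet-null cells 16 were higher and 0 lower (16.4% and 16.2% of all genes), with a median of 1.05 against 0.009. Against STAT6-null cells 13 were higher and 4 lower (11.3% and 8.63% of all genes), with a median of 1.19 against 0.014. More of its members are described below than the 8 a list that the rule for named genes allows.

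Among the factors, Ahr was highest in double-null cells. Ahr, the aryl hydrocarbon receptor on which Il22 depends, stood at 72.1 and 71.6 FPKM against 17.6 and 20.7 in WT, 34.4 and 34.1 in T-bet-null and 44.8 and 46.9 in STAT6-null libraries, a difference from WT of 1.86 ± 0.073. Rora, a nuclear receptor gene, was 0.90 above WT, but its difference from T-bet-null cells, 0.25 ± 0.128, was not called (adjusted p = 0.168).

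Batf, Maf, Stat3 and Il21 were not highest in double-null cells. Batf, an AP-1 partner needed for Th17 cells, stood at 219 ± 24.3 FPKM in double-null and 227 ± 2.39 in STAT6-null cells, a difference of -0.05 that was not called (SE 0.081). Maf and Stat3 were higher than in WT by 1.00 and 0.44 and lower than in STAT6-null cells by 0.52 and 0.30 on the log2 scale. Il21, a cytokine that supports Th17 and follicular cells, had 1130 and 1134 FPKM in double-null, 335 and 387 in WT and 1467 and 1516 in STAT6-null libraries. Hif1a, the hypoxia-induced factor, was 0.80 above WT and similar in all mutants, at 341 and 352 FPKM in double-null and 330 to 353 in the single mutants.

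The receptors Il23r, Il1r1 and Ccr6 were highest with both factors missing. Il23r, the receptor chain for IL-23, stood at 20.5 and 25 FPKM in double-null libraries and between 4.25 and 6.21 in the other 6. Its difference from WT was 2.16 ± 0.128 (adjusted p = 8.61e-07). Il1r1, the IL-1 receptor, stood at 7.15 and 8.37 FPKM against 2.48 to 4.21, a difference from WT of 1.16 ± 0.105 (adjusted p = 1.11e-05). Ccr6, the receptor for CCL20, stood at 83.1 and 85.7 FPKM in double-null, 41.6 and 41.6 in T-bet-null and 23.4 to 27.8 in the 4 WT and STAT6-null libraries. For these 3 receptors STAT6-null cells did not differ from WT by the test (differences of 0.22, -0.03 and 0.06), while T-bet-null cells were higher by 0.42, 0.41 and 0.68. Il6ra, an IL-6 receptor chain, was the 1 member that fell, to 28.1 and 27.3 FPKM from 56.0 and 56.0 in WT, and T-bet-null libraries had 28.3 and 29.7. Il6st, the shared signalling chain of the IL-6 family, rose by 0.64.

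The changes were then sorted by what the single mutants did against WT. In T-bet-null cells 34.2% of genes were higher and 36.3% lower than in WT, and in STAT6-null cells 34.9% and 36.1%. By at least 2-fold, 4.24% were higher and 4.09% lower in T-bet-null cells and 4.54% and 5.56% in STAT6-null cells. Of the 3734 genes higher in double-null cells, 2780 (74.5%, or 27.0% of genes tested) were higher in both single mutants too, and of the 3775 lower genes 2795 (74.0%, or 27.2%) were lower in both. A further 210 higher (2.04%) and 291 lower genes (2.83%) went with T-bet-null cells only, and 426 (4.14%) and 382 (3.72%) with STAT6-null cells only. These comparisons share the 2 WT libraries. Genes called in double-null cells, in neither single mutant the same way, and also beyond each single mutant by direct test numbered 102 higher (0.992% of genes tested) and 79 lower (0.768%). The last 216 (2.1%) and 228 genes (2.22%) were called in neither single mutant the same way but did not pass both direct tests. Among genes that differed from WT by at least 2-fold, 601 of 641 higher (93.8%) and 642 of 683 lower genes (94.0%) were in the class of both single mutants, and 9 higher and 1 lower gene in the double-null class.

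**Figure D3:**
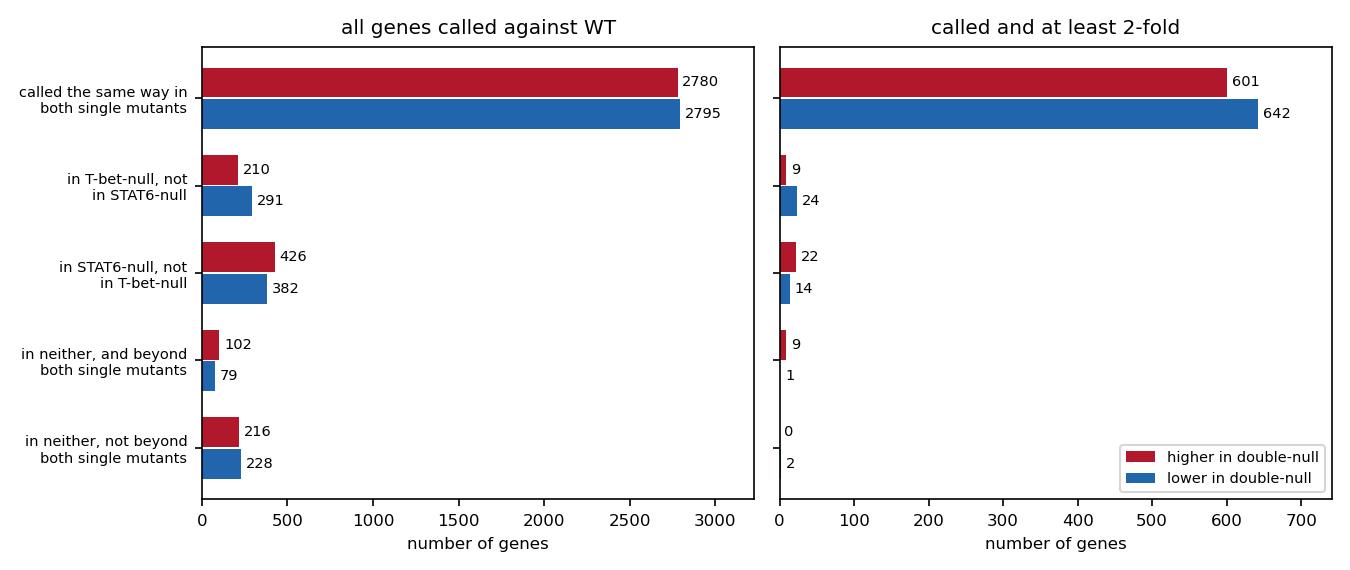
Number of genes (x axis) called in double-null against WT cells in each of 5 classes, with all called genes at left and those of at least 2-fold at right. The class called in both single mutants holds 2780 higher and 2795 lower genes, and the double-null class 102 and 79.

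The double-null class can hold genes that a single mutant moved the other way. Where genes in double-null cells alone are counted below, this class is meant. Areg had one of the largest margins in this class. It encodes amphiregulin, an epidermal growth factor receptor ligand that takes part in epithelial repair. It stood at 568 and 681 FPKM in double-null libraries and at 230 to 264 in the other 6, which overlapped one another. The difference was 1.40 ± 0.083 from WT (adjusted p = 8.69e-07), 1.34 from T-bet-null and 1.27 from STAT6-null cells, and neither single mutant differed from WT by the test (0.06 and 0.12).

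The other genes of this class with the largest margins were of low level. Tnfrsf8, which encodes the TNF receptor family member CD30, stood at 6.34 and 10.2 FPKM against 2.69 to 3.52 in the other 6 libraries, 1.12 ± 0.176 above WT. Tmem176a and Tmem176b, adjacent membrane protein genes highly expressed in Th17 cells (chr 6, 48841483-48845364 and 48833811-48845948, with overlapping spans, so that their reads may not be separable), were 0.96 and 0.67 above WT. In STAT6-null cells the pair was below WT, by 0.84 and 1.09, so the direct differences there were 1.79 and 1.76. Xkrx, Ttbk1, Amph, Acpp and Epdr1 rose by 1.39, 1.28, 1.13, 1.11 and 0.90 against WT; Ttbk1, a tau tubulin kinase, and Amph, the synaptic protein amphiphysin, are best known from neurons. Gm5617 rose by 1.03, and its difference from STAT6-null cells lost its call without STAT6-null library 2 (0.84, adjusted p = 0.0502, range over alternatives 0.000697 to 0.0502). Iltifb, described above, also fell in this class.

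Of the 79 lower genes, Sostdc1 was the 1 that differed from WT by at least 2-fold. It encodes a secreted antagonist of BMP and Wnt signals. It stood at 1.70 and 1.62 FPKM in double-null libraries and between 6.06 and 8.76 in the other 6 (both double-null libraries were lowest for 12.1% of genes), a fall of 1.45 ± 0.077 on the log2 scale from WT (adjusted p = 4.7e-07). Csf1, the macrophage growth factor, stood at 17.5 and 18.6 FPKM against 26.8 to 33.5 in the other 6. Wisp1, a matricellular protein gene, stood at 29.9 and 27.9 FPKM against 47.4 to 63.5. Id1, F3, Sgsm2, Jhdm1d, Cyb5d1, Art2a-ps and Rnf128 fell by 0.55 to 0.69 against WT. Of these, Id1, Cyb5d1 and Rnf128 lost the difference from T-bet-null cells, and F3, Art2a-ps and Rnf128 that from STAT6-null cells, when single libraries were left out; the highest adjusted p was 0.123, for Rnf128 without double-null library 2.

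**Figure D4:**
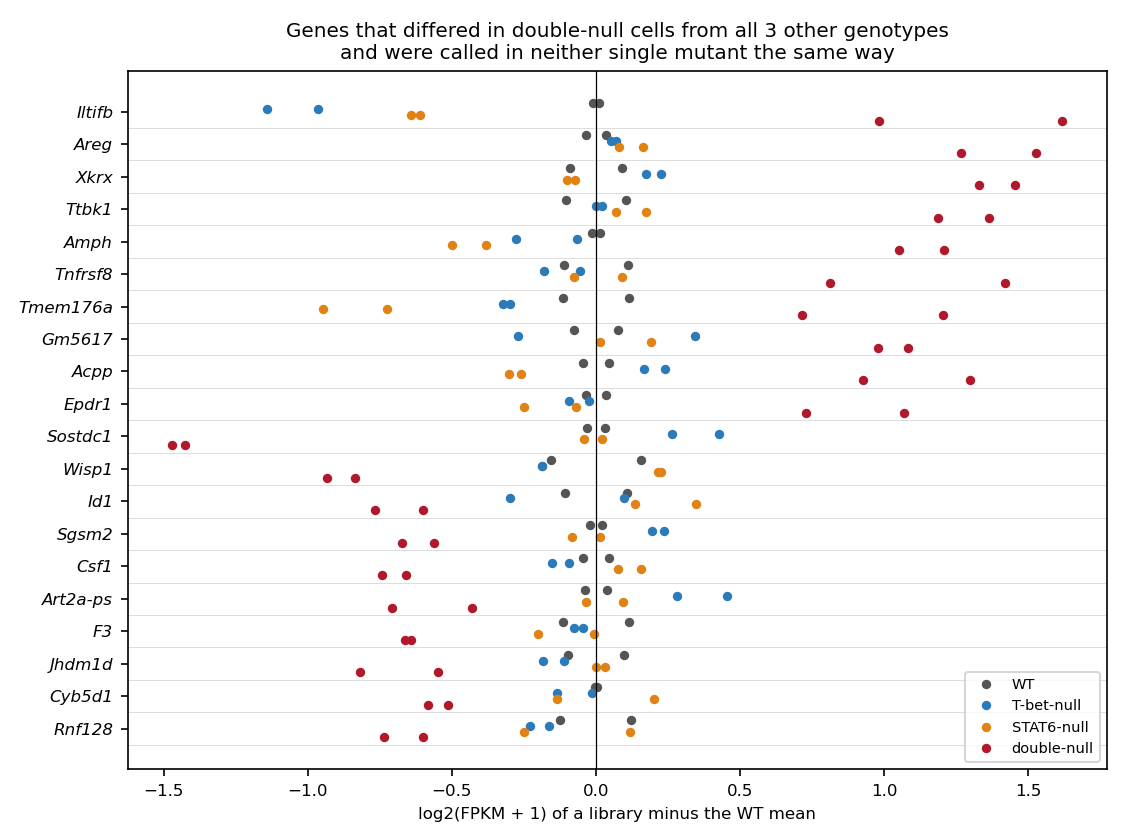
For 20 genes of the double-null class (rows), log2(FPKM + 1) of each of the 8 libraries minus the WT mean (x axis), coloured by genotype. Both double-null points lie apart from the other 6 in each row, to the right for the 10 higher genes and to the left for the 10 lower ones, with Sostdc1 below -1.4.

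The size of this class depended on single libraries. The 102 higher genes became 60 without T-bet-null library 2, 55 and 63 without STAT6-null library 1 and 2, 172 without double-null library 1 and 41 without double-null library 2, and 39 of those 41 were among the 102. The 79 lower genes became 49 without T-bet-null library 2, 36 and 41 without STAT6-null library 1 and 2 and 41 without double-null library 2. In each of these settings the lone library of a genotype was taken to vary like the others.

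Unfolded protein response genes help to fold and export secreted proteins from the endoplasmic reticulum. Of the 15 tested, 5 (Hspa5, Hsp90b1, Dnajb9, Pdia4 and Sdf2l1) were in the higher double-null class, where 0.992% of all genes were, and the list as a whole had 10 higher and 2 lower against WT, against 36.3% and 36.7% of all genes, with a median of 0.27 against -0.005. Sdf2l1, an endoplasmic reticulum chaperone cofactor, stood at 20.1 and 24.0 FPKM against 9.93 to 12.5 in the other 6 libraries. The rise was smaller for Hsp90b1, at 194 and 208 FPKM against 142 to 166, and for Hspa5, which encodes the chaperone BiP, at 0.22 above WT. Differences of Hspa5 and Hsp90b1 from STAT6-null cells and of Dnajb9 from T-bet-null cells lost their calls when single libraries were left out, with adjusted p up to 0.129, and Hspa5 against WT did so (adjusted p = 0.0505) when only these genotypes were fitted. Pdia6, a disulphide isomerase, rose in both single mutants and further in double-null cells, to 98.7 and 109 FPKM from 57.1 and 52.1 in WT.

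Many genes were called in a single mutant and went further in double-null cells. Counting all genes beyond WT and beyond both single mutants by direct test, a class added after values were seen, 410 were higher (3.99%) and 296 lower (2.88%), of which 273 and 177 also changed in both single mutants. Without T-bet-null library 1 or 2, STAT6-null library 1 or 2 or double-null library 2, the higher count was 226, 203, 192, 219 or 185, and the lower count 166, 171, 125, 165 or 168. Against T-bet-null cells 0.846% of genes were higher and 0.447% lower by at least 2-fold, and against STAT6-null cells 0.428% and 0.584%. In all 3 comparisons at once 18 genes were higher by at least 2-fold, among them Il17a, Il17f, Il22, Iltifb, Ccl20, Il23r, Ccr6, Areg, Tnfrsf8, Npy, Esm1, Cpe, Pkdcc, Lingo4, Amph, Ttbk1 and Xkrx. The 5 lower ones were Nkg7, Lrrc32, Sostdc1, Mir27a and 2210039B01Rik. Those of the 23 that the rule for named genes does not cover, Esm1, Pkdcc and Lingo4, were singled out after their values were seen.

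Npy, which encodes the neuropeptide Y precursor, had the widest spread of these: 103 and 216 FPKM in the double-null libraries against 11.2 and 13.6 in WT, 26.4 and 26.1 in T-bet-null and 23.7 and 27.6 in STAT6-null libraries. Even the lower double-null library was above the other 6. Cpe, the carboxypeptidase that matures peptide hormones, stood at 18.3 and 21.8 FPKM against 2.79 to 5.06. Esm1, a secreted proteoglycan gene, stood at 145 and 145 FPKM against 29.6 to 56.8. Pkdcc, a secreted kinase gene, was at 4.20 and 5.41 FPKM against 0.259 to 1.01. Lingo4 was at 2.88 and 3.44 FPKM against 0.504 to 0.940.

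Nkg7, a granule membrane protein gene of cytotoxic and Th1 cells, was lowest with both factors missing. It stood at 1.43 and 1.57 FPKM, against 22.5 and 20.5 in WT, 6.05 and 4.65 in T-bet-null and 17.2 and 15.6 in STAT6-null libraries. Lrrc32, which encodes GARP, the carrier of latent TGF-beta on regulatory T cells, fell to 4.96 and 3.89 FPKM from 24.6 and 21.7 in WT. STAT6-null libraries had 11.5 and 9.17 and T-bet-null libraries 19.7 and 17.9 FPKM of it. Foxp3, the defining factor of regulatory T cells, stood at 97.4 and 113 FPKM against 85.2 and 90.6 in WT (0.25 ± 0.075, adjusted p = 0.0135), a call lost without WT library 1 (adjusted p = 0.0768) or double-null library 2 (adjusted p = 0.0843). Mir27a, a microRNA hairpin gene shorter than the sequenced fragments, so that its FPKM is uncertain, fell from 365 and 222 to 27.2 and 24.7.

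Most of the other large changes were in the class of both single mutants. Mmp13, a collagenase, rose most of the genes called, from 2.37 and 2.04 FPKM in WT to 65.5 and 63.2, by 4.35 ± 0.069 (adjusted p = 3.08e-09), with 22.2 and 22.7 in T-bet-null and 36.4 and 39.6 in STAT6-null libraries. Mmp10, another matrix metalloproteinase, and Timp1, an inhibitor of such enzymes, rose by 3.17 and 3.62. Timp1 did not differ between double-null and STAT6-null cells by the test (0.24 ± 0.226, adjusted p = 0.496). Ncs1, a neuronal calcium sensor, stood at 37.7 and 39.3 FPKM against 3.04 and 3.52 in WT and 28.5 to 32.2 in the single mutants. St6galnac4, a sialyltransferase, stood at 24.6 and 22.8 FPKM, within the range of the 4 single-mutant libraries, 21.9 to 26.1. Bcat1, an enzyme of branched-chain amino acid breakdown, Zeb2, a transcription factor of effector T cells, and the secretogranin gene Scg2 rose by 2.61, 3.11 and 3.19.

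On the lower side of that class, several genes had similar levels in all mutants. Mxd4, a MYC antagonist, stood at 6.70 and 7.38 FPKM in double-null and 5.84 to 9.07 in single-mutant libraries, against 46.6 and 50.9 in WT. Evl, an actin regulator, and Arl13b, a small GTPase of cilia, fell by 2.31 and 2.60. Of 20 quiescence genes 16 were lower and 2 higher in double-null cells, against 36.7% and 36.3% of all genes, and their median was -0.96 against -0.005 over all genes. Of 17 naive and central memory genes 10 were lower and 5 higher, with a median of -1.14. Ccr7 was a member that went further with both factors lost, at 19.1 and 18.5 FPKM against 143 and 122 in WT and 33.2 to 50.2 in the single mutants. Of 35 immediate early genes 25 were lower and 5 higher than in WT, against 36.7% and 36.3% of all genes, with a median of -0.41 against -0.005. Egr3, an activation-induced factor, stood at 242 and 243 FPKM against 878 and 960 in WT, and Fosb, an AP-1 subunit, at 247 and 239 against 1002 and 888. Against T-bet-null cells that list had 8 higher and 8 lower genes, where 16.4% and 16.2% of all genes were called. Glycam1, Hba-a1 and Beta-s, genes of high endothelial venules and red blood cells, were lower in this class too.

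Th1 genes were among those that fell in T-bet-null and double-null cells only. Ifng, the Th1 cytokine (chr 10, 118441046-118445894), stood at 16 and 17.8 FPKM in double-null, 1029 and 1250 in WT, 32.4 and 33.9 in T-bet-null and 3516 and 3704 in STAT6-null libraries. The difference from WT was -5.99 ± 0.092 (adjusted p = 3.08e-09), and double-null cells were also below T-bet-null cells, by 0.93 (adjusted p = 0.0002). Cxcr3, the receptor of Th1 cells for interferon-induced chemokines, showed the opposite step: 15.7 and 16.4 FPKM in double-null, 7.13 and 8.24 in T-bet-null and 109 and 127 in WT libraries. The chemokine Ccl3 fell to 12.4 and 13.2 FPKM from 75.7 and 71.1 in WT, below the 25 and 26.9 of T-bet-null libraries, and Ccl4 to 81.9 and 82.3 from 209 and 203. Their annotated spans overlap (chr 11, 83647843-83649378 and 83648624-83664683), so reads may not be fully separable. Csf2, which encodes GM-CSF, fell by 1.27. On the higher side the class held Cpe, Il23r, Ccr6 and Il1r1, described above, and the pseudogene Hmga2-ps1, which rose by 1.28.

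Over the Th1 list, 10 of 17 tested genes were lower than in WT and 5 higher, against 36.7% and 36.3% of all genes. By at least 2-fold, 8 were lower and 4 higher, against 6.64% and 6.23%, and the list's median was -0.99 against -0.005. Among the 5 higher ones, Havcr2, Cxcr6, Il18rap and Il18r1 encode surface receptors; Havcr2, the checkpoint receptor TIM-3, stood at 74.3 and 82.0 FPKM against 19.6 and 22.0 in WT and 116 and 117 in STAT6-null libraries. Stat4, which carries the IL-12 signal, was not called (0.03). Of 29 interferon response genes 25 were lower and 2 higher than in WT, against 36.7% and 36.3% of all genes (median -0.87 against -0.005). Against T-bet-null cells 10 were higher and 1 lower, against 16.4% and 16.2% of all genes. Iigp1 and Gbp4, interferon-induced GTPases, fell by 1.81 and 1.60.

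Il22, Gzmb and Bcl3 were among the genes higher in STAT6-null and double-null cells only. Gzmb, the granule protease granzyme B, stood at 109 and 197 FPKM in double-null and 138 and 135 in STAT6-null libraries, against 12.9 to 16.5 in the 4 WT and T-bet-null libraries. The double-null libraries differed from each other and enclosed the STAT6-null pair. Both lay above the WT libraries, and the difference of the genotype means was 3.40 ± 0.211 (adjusted p = 1.09e-06). Bcl3, a nuclear IkB protein, stood at 20.6 and 27.7 FPKM, and 29.9 and 27.7 in STAT6-null, against 5.33 to 7.5 in WT and T-bet-null libraries. Kit, the stem cell factor receptor known from mast cells and innate lymphoid cells, stood at 56.7 and 62.9 FPKM, above STAT6-null (32.5 and 34), WT (18.1 and 18.6) and T-bet-null libraries (8.67 and 8.11). Hdc, another mast cell gene, was 1.29 and 1.17 FPKM against 1.39 and 1.32 in WT, and Cpa3, Mcpt4 and Fcer1a are not among the listed genes. Igj and 5830415F09Rik rose by 1.90 and 1.85; Igj, the immunoglobulin J chain of plasma cells, stood at 4.83 and 2.83 FPKM against 0.142 to 0.285 in WT and T-bet-null libraries.

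Lower with STAT6-null cells only were Itga4, the integrin alpha 4 chain, at 1.21 and 1.28 FPKM against 5.33 and 6.07 in WT, and Cysltr2, a leukotriene receptor, at 2.03 and 2.18 against 6.82 and 6.19. Gfi1, a STAT6-dependent transcriptional repressor that acts in Th2 cells, fell by 0.84, to 25.4 and 20.2 FPKM. Mir3064, a short hairpin gene, had 138 and 312 FPKM in double-null and 936 and 499 in WT libraries.

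Il10, an anti-inflammatory cytokine, was highest in the genotypes without STAT6. It stood at 1338 and 1631 FPKM in double-null, 2462 and 2546 in STAT6-null, 430 and 429 in T-bet-null and 304 and 325 in WT libraries. Double-null cells were above WT by 2.23 ± 0.09 (adjusted p = 1.3e-07) and below STAT6-null cells by 0.76 on the log2 scale (adjusted p = 0.000777).

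Il4 and Il13 lay above WT and below both single mutants. Il4 (chr 11, 53612460-53618665) stood at 747 and 711 FPKM in double-null, 183 and 117 in WT, 2079 and 2048 in T-bet-null and 1238 and 1275 in STAT6-null libraries. The difference from WT was 2.31 ± 0.163 (adjusted p = 2.38e-06), from T-bet-null cells -1.5 (adjusted p = 0.000324) and from STAT6-null cells -0.79 (adjusted p = 0.0112). Il13, which acts on epithelium, stood at 619 and 525 FPKM in double-null, 271 and 248 in WT, 1556 and 1522 in T-bet-null and 865 and 775 in STAT6-null libraries. Il5, the eosinophil cytokine, stood at 54.0 and 54.6 FPKM, above STAT6-null (31.7 and 23.4) and WT (32.1 and 21.0) and below T-bet-null libraries (272 and 286). Gata3, the factor that drives these genes, was not called against WT (0.01 ± 0.062, adjusted p = 0.922), at 74.2 and 76.4 against 71.9 and 78.0 FPKM, and was 0.87 below T-bet-null cells. Over the Th2 list, 10 of 17 tested genes were higher than in WT and 3 lower, against 36.3% and 36.7% of all genes (median 0.41 against -0.005). Against T-bet-null cells 4 were higher and 10 lower, against 16.4% and 16.2% of all genes (median -0.87 against 0.009). Areg, which is also on this list, was 1 of the 4 that exceeded T-bet-null cells. Ccr8, a chemokine receptor of skin T cells, fell to 95 and 104 FPKM from 445 and 475 in WT.

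Over the Th9 list the counts against WT, for changes of any size, were close to those over all genes. Of 18 tested genes, 8 were higher and 6 lower than in WT, against 36.3% and 36.7% of all genes, with a median of 0.00 against -0.005. By at least 2-fold, 4 were higher and 2 lower, against 6.23% and 6.64%. Compared with T-bet-null cells 5 were higher and 7 lower (16.4% and 16.2% of all genes), and with STAT6-null cells 4 and 2 (11.3% and 8.63%). Batf, Stat5a and Irf8, factors that act on Il9, were higher than in WT by 1.59, 1.12 and 1.04. Stat5a did not differ from either single mutant by the test (0.06 and -0.03). Il9r, the IL-9 receptor, fell by 0.87, and Il17rb, the IL-25 receptor chain, by 1.75, to 0.694 and 0.628 FPKM from 5.08 and 4.10.

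**Figure D5:**
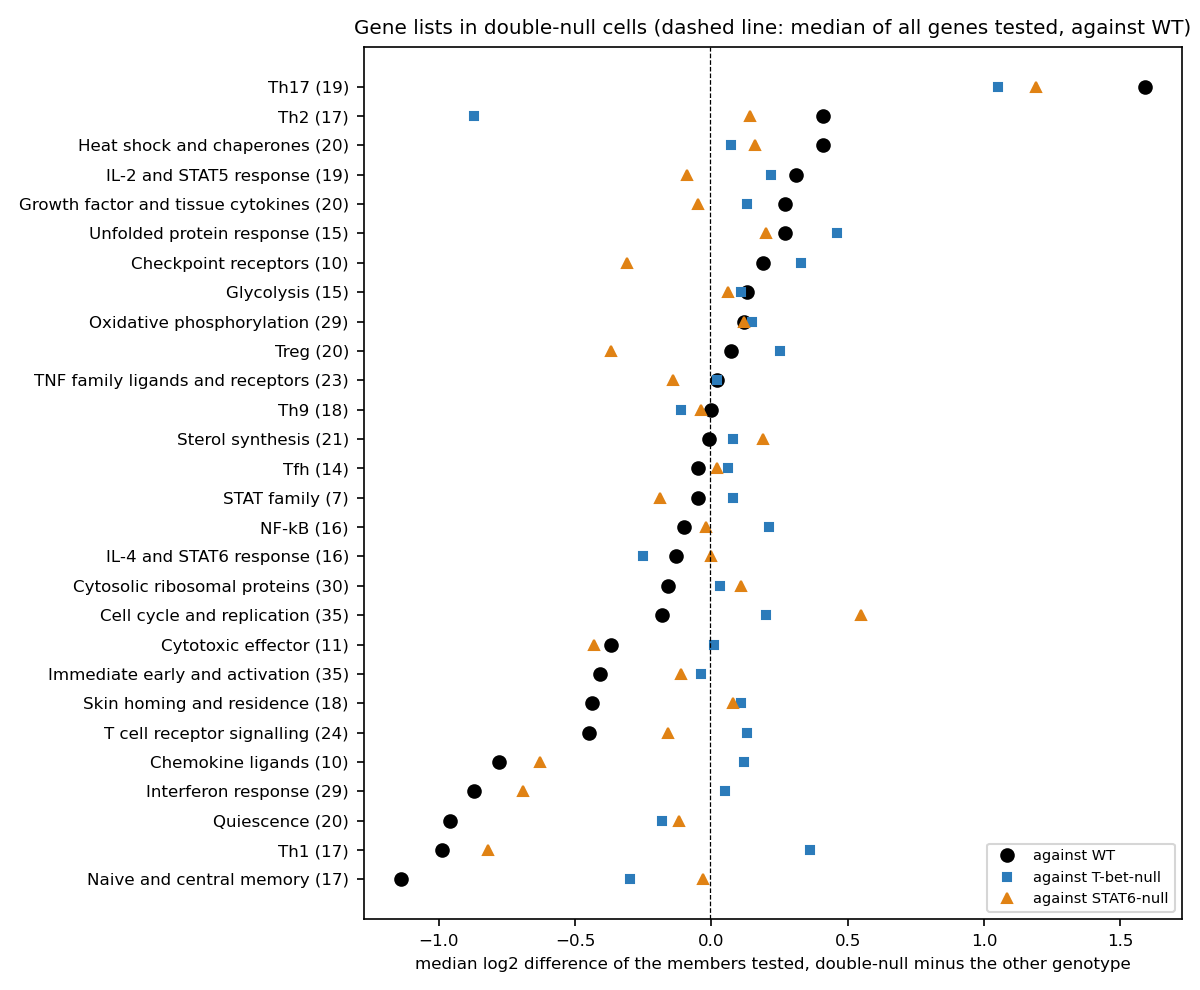
Median log2 difference (x axis) of the tested members of each gene list with at least 7 tested genes, other than the marker lists of cell types (rows, number tested in brackets), double-null minus WT (circles), minus T-bet-null (squares) and minus STAT6-null (triangles). Of the lists shown, Th17, which counts marker genes such as Il17a and Il17f, lies farthest right in all 3 comparisons (1.59, 1.05 and 1.19). The Th1, quiescence, interferon and naive lists lie below -0.8 against WT.

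Of 35 cell cycle genes tested, 29 were higher and 0 lower than in STAT6-null cells, against 11.3% and 8.63% of all genes (median 0.55 against 0.014). Against WT 3 were higher and 17 lower, where 36.3% and 36.7% of all genes were (median -0.18 against -0.005), and these shares of all genes also stand beside the counts against WT that follow. Mcm6, a replication helicase subunit, stood at 20 and 21.2 FPKM, between STAT6-null (14.2 and 15.3) and WT libraries (28.4 and 27.0). Heat shock and chaperone genes were higher than in WT for 16 of 20 and lower for 4 (median 0.41). Of those 16, 12 were higher in both single mutants as well, near the 74.5% over all genes higher in double-null cells. Il2, the T cell growth factor, stood at 6133 and 5044 FPKM against 2741 and 2911 in WT, and the IL-2 response list had 13 higher and 3 lower genes of 19 (median 0.31). Of 24 T cell receptor signalling genes 13 were lower and 9 higher (median -0.45), the higher ones near the share over all genes. Cytosolic ribosomal protein genes had 0 higher and 13 lower of 30 (median -0.16), the lower ones near the share over all genes. Oxidative phosphorylation subunits had 11 higher and 8 lower of 29 (median 0.12), with the higher ones near that share.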

How the data were processed

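RNA of 8 libraries was analysed, 2 for each of 4 genotypes, each placed by its own label. The values are FPKM as deposited by the authors in 1 table. Cufflinks is named per the submitters' processing notes, which also name the build mm10; gene names are RefSeq's. The sources used here do not state the aligner, the Cufflinks version or the strandedness. Every value of the 11906 lines lies above 0.1 FPKM, so a gene silent in any library is missing. Where a symbol had several lines (43 symbols), only its line of highest mean entered, and 65 lines were set aside. Coordinates and promoters are RefSeq's, GRCm38.p6: 10575 symbols matched, and 1179 by an older name.

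Depth is not in the table. Relative depths were read from ratios between libraries of the 503 genes under 0.5 FPKM, of which 106 to 130 gave simple fractions against the first WT library. Only 45 lay on whole steps of 1 fragment in all 8 libraries (tolerance 0.05), so no count test was run. The median SD between replicates at 16 to 64 FPKM was 0.035 to 0.059 on the log2 scale.

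limma 3.58.1 (R 4.3.3) was run on log2(FPKM + 1) for genes of at least 1 FPKM in at least 2 libraries, with 1 mean for each genotype (4 residual degrees of freedom), an intensity trend, two-sided tests and Benjamini-Hochberg adjustment within each comparison. The code was tested on simulated data. Python 3.11.15 and pandas 2.3.3 served for the rest. Named genes are Tbx21, Stat6, the 5 markers, the 12 largest rises and 12 largest falls with groups that do not overlap, the leading genes of each class (10 higher and 10 lower for the double-null class, 6 and 6 for the class of both single mutants, 5 and 5 for the others) and up to 8 members a list. Some list members are not reported here by name. Members, lists and classes were chosen with earlier results of these data known. Alternatives were another pseudocount, other filters, median-of-ratios scaling, quantile normalization, only the genotypes compared, a replicate block and each library left out in turn.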

Additional observations from a re-analysis of the deposited data

Results flagged for a closer look

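For each of the 5 marker genes the measured effect of losing STAT6 differed between cells with and without T-bet. This was called by the interaction term of the same limma fit, adjusted over all genes tested. The effect with T-bet is the difference of STAT6-null from WT cells, so the term rests on the WT libraries, which stood apart from all mutants. What set WT apart and an effect of the genotypes cannot be told apart by it. Over all genes this term was called above 0 for 29.6% and below 0 for 27.7%, and the 5 genes were chosen as markers of double-null cells with these data known. For Il22 the effect was 3.73 without T-bet and 0.53 with it, a difference of 3.20 ± 0.161 (adjusted p = 4.86e-06). For Il17a it was 2.05 and 1.07, a difference of 0.98 ± 0.127 (adjusted p = 0.000286), and for Il17f 2.60 and 1.82, a difference of 0.78 ± 0.129 (adjusted p = 0.000966). For Ccl20 it was 2.94 and 2.42, a difference of 0.52 ± 0.128 (adjusted p = 0.00817). For Il9 the sign was the opposite, 0.95 without T-bet and 2.10 with it, a difference of -1.15 ± 0.192 (adjusted p = 0.00105), and -2.63 with a pseudocount of 0.1. In all 5 genes both double-null libraries lay above the other 6, as held for 13.4% of all genes tested. The values are on the log2(FPKM + 1) scale, on which Il9 of WT cells lies near the floor.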

How the results depend on the processing

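Each of the values below was recomputed with 1 choice changed at a time. No recomputed difference of a named gene reversed under any alternative run, and 20 of 2562 recomputed gene values lost their call, as given beside the genes above. These values were differences of double-null cells from WT and, for the 5 markers and the double-null class only, from each single mutant. Other differences of named genes between mutants, and those of single mutants from WT, were not recomputed. With a pseudocount of 0.1, genes lower by at least 2-fold against WT became 1152 in double-null, 823 in T-bet-null and 1055 in STAT6-null cells; against T-bet-null cells 148 double-null genes were higher and 128 lower by at least 2-fold, and against STAT6-null cells 86 and 105. With a filter of 5 FPKM, 7270 genes were tested, 2449 were lower in STAT6-null than in WT cells, 226 lower genes went with STAT6-null cells only and 140 were lower in double-null cells without passing both direct tests.

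Leaving out each library in turn gave 770 to 1867 double-null genes higher and 872 to 1661 lower than in T-bet-null cells, and 460 to 1220 higher and 386 to 878 lower than in STAT6-null cells. The higher genes numbered 163 to 373 with T-bet-null cells only, 41 to 172 in double-null cells alone, 114 to 358 left over and 185 to 529 beyond all 3 genotypes. The lower genes numbered 219 to 467 with T-bet-null only, 282 to 604 with STAT6-null only, 36 to 81 in double-null cells alone, 153 to 360 left over and 125 to 284 beyond all 3. Against WT the counts moved little, to 3387 to 3689 higher and 3305 to 3714 lower. The lone library left in a genotype was assumed to vary like the others.

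Replicate numbers did not pair the samples: deviations of same-numbered libraries from their genotype means had correlations of -0.0899 to 0.0907. With a replicate block, 86 higher and 72 lower genes were in the double-null class and 358 and 266 beyond all 3 genotypes.

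With 2 libraries a genotype, 4 residual degrees of freedom and no depth in the table, small differences of low genes rest on the trend of the spread over all genes. WT was alone in its high Hba-a1, Beta-s and Y-linked levels. What set WT apart and what each genotype did therefore cannot be told apart by comparisons with WT. The mean differences between mutants do not use the WT libraries. Their SE and adjusted p in the main fit do, because the spread was estimated over all genotypes and the filter on low genes also counted WT.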
